A study of Mus musculus with 12 samples.

Results

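The hepatokine and growth factor axis of the liver was followed through 9 genes, Fgf21, Gdf15, Angptl4, Angptl8, Igf1, Igfbp1, Igfbp2, Lepr and Fetub, among the 24019 genes with a value in the RNA-seq table. The genes were taken by name, and the values of the RefSeq transcripts of each gene were summed in each of 6 mice. All 9 genes were among the 9748 tested, those with at least 1 FPKM (fragments scaled by transcript length and library size) in at least 2 mice.

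Hepatokines are proteins that the liver releases into the blood and that act on other organs. FGF21, with its co-receptor beta-klotho, and GDF15, with the hindbrain receptor GFRAL, act as hormones of fasting, nutrient imbalance and cell stress. ANGPTL4 and ANGPTL8 regulate lipoprotein lipase, ANGPTL4 mainly in fasting and ANGPTL8 after feeding. The liver is the main source of circulating IGF-1, and IGFBP1 and IGFBP2 bind it in plasma; insulin represses Igfbp1. LEPR is the leptin receptor, and fetuin-B, encoded by Fetub, is a secreted protease inhibitor.

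Livers came from male C57BL/6J mice, and RNA-seq and FAIRE-seq, which recovers accessible DNA, were run on the same livers, giving 12 samples. Sham and VSG mice received a diet with 60 kcal% fat from 8 weeks of age, for 14 weeks before surgery and 14 weeks after it. VSG (vertical sleeve gastrectomy) removed about 80% of the stomach, whereas the Sham operation only put pressure on it, and both groups were given liquid diet for 4 days. Control mice were kept on chow for 28 weeks with no surgery, so diet and surgery cannot be told apart where Control is compared with Sham or VSG. Each group had 2 mice. Values in whole liver do not separate fewer cells of a type from less RNA per cell.

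Read depth is not given with FPKM values, but the spacing of low values placed the 6 libraries at 0.676 to 1.56 times the depth of Control mouse 1. Hepatocyte markers summed to between 13140 and 19280 FPKM in every mouse, over the 7 of 10 listed markers that had a value. Apoa1, at 6334 to 11120 FPKM, gave the largest part of each sum, and single markers did not all follow it. Ambp was at 1717 and 1647 FPKM in Control and 3491 and 4141 in Sham mice. Cps1 was at 153 and 518 FPKM in Control and 70.5 and 115 in Sham mice. The median difference between the 2 mice of a group was, on the log2 scale, 0.21 for Control, 0.45 for Sham and 0.34 for VSG mice. Sham mouse 1 was listed at 0 for Apob and Hnf4a, both of which hepatocytes express throughout, so a value of 0 may be a failed estimate and is given here only as listed. Such values were in every mouse. Of 2283 genes with a mean of at least 20 FPKM, 61 and 73 were listed at 0 in Control, 80 and 51 in Sham, and 65 and 71 in VSG mice.

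The sequences upstream of 4 of the genes are shown first because they held matches to regulatory motifs and lay wholly within FAIRE peaks of all 3 groups. The 250 bases before the transcription start site (TSS) were read from RefSeq promoters on GRCm38.p6 and located by exact match in NCBIM37 (mm9), the build of the peak files. Capitals mark TGATGCAA or its reverse complement (ATF4) in Fgf21 and Angptl8, CAAAACA (FOXO, the insulin response motif) in Igfbp1 and a direct repeat of the PPAR type in Gdf15. Positions are chr7:52870861-52871110 (minus strand) for Fgf21, chr9:21639704-21639953 (plus strand) for Angptl8, chr11:7097540-7097789 (plus strand) for Igfbp1 and chr8:73156356-73156605 (minus strand) for the upstream Gdf15 promoter.
Fgf21: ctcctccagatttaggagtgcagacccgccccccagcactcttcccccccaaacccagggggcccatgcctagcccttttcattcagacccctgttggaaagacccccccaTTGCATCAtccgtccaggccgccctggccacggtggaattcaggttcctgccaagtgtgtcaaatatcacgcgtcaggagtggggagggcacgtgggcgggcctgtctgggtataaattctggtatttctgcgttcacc
Angptl8: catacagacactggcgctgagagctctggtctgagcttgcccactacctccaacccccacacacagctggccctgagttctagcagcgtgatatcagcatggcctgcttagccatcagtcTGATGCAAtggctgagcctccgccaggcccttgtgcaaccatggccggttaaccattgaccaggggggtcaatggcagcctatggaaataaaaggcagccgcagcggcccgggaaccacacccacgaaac
Igfbp1: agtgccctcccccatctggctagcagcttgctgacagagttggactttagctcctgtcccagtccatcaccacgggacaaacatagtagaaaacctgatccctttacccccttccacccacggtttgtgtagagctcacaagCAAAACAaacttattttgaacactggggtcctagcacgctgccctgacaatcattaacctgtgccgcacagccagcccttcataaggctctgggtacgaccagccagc
Gdf15: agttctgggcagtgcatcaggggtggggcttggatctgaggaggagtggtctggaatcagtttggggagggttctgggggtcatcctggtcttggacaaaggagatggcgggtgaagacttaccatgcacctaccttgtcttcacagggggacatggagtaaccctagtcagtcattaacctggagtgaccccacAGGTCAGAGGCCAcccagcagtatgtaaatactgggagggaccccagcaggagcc

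With the TSS as position 0, the ATF4 letters TGATGCAA lay at −139 to −132 in Fgf21, on the opposite strand, and at −130 to −123 in Angptl8, and 0.895% of the 32851 RefSeq promoters held them on either strand. The FOXO letters CAAAACA lay at −108 to −102 in Igfbp1 and at −114 to −108 of a downstream Lepr TSS, against 6.28% of all promoters. The PPAR direct repeat (DR1, a repeat spaced by 1 base) was searched with at most 2 mismatches. It matched with 1 mismatch at −55 to −43 of the upstream Gdf15 TSS. Of all promoters, 3.86% held a match with at most 2 mismatches and 0.554% one with at most 1. No promoter of the members held the STAT5 letters TTCNNNGAA, found in 8.3% of promoters, or the carbohydrate response element (ChoRE) with at most 2 mismatches, found in 0.953%. Of the 9 genes, 8 were in the promoter table, with 12 promoters in all; Angptl4 was not. A match describes the letters and not the binding of a factor.

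Angptl8, Gdf15 and Fgf21 had higher values in both high-fat groups than in Control mice, and Igfbp1 and Angptl4 had lower ones, with no overlap between the mice. Of the 9 genes, 5 were thus separated from Control in both high-fat groups together, where 26.2% of all genes tested were. Sham and Control mice did not overlap for 6 of the 9 genes (46.0% of all genes), nor did VSG and Control mice for 6 (48.7%). VSG and Sham mice, which differ in surgery alone, did not overlap for 3 of the 9, Igf1, Angptl8 and Angptl4, against 28.4% of all genes. With 2 mice a group, groups separate often, and these shares describe the values only.

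None of the 9 genes passed an FDR of 10% in any comparison by limma, with p-values adjusted over all 9748 genes. The share of all genes that passed was 0.308% (30 genes) for Sham vs Control, 0.0513% (5 genes) for VSG vs Sham, 0.287% (28 genes) for VSG vs Control and 0.421% (41 genes) for both high-fat groups vs Control. At an unadjusted p below 0.05, the fit held 1, 0, 4 and 4 of the 9 genes in those comparisons, against 1069, 474, 936 and 1155 of all genes. The numbers of all genes past the FDR of 10% moved to 169, 77, 35 and 75 without Sham mouse 2 and to 0, 9, 0 and 0 without Control mouse 1, where limma gave 563, 321, 520 and 586 genes an unadjusted p below 0.05. The number of the 9 genes past the FDR was 0 without any 1 mouse. The comparisons share mice, and their results are not independent. The median log2 fold change of the 9 genes was −0.39, 0.30, −0.051 and −0.20, beside medians over all genes of 0.034, 0.082, 0.12 and 0.065.

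**Figure D1:**
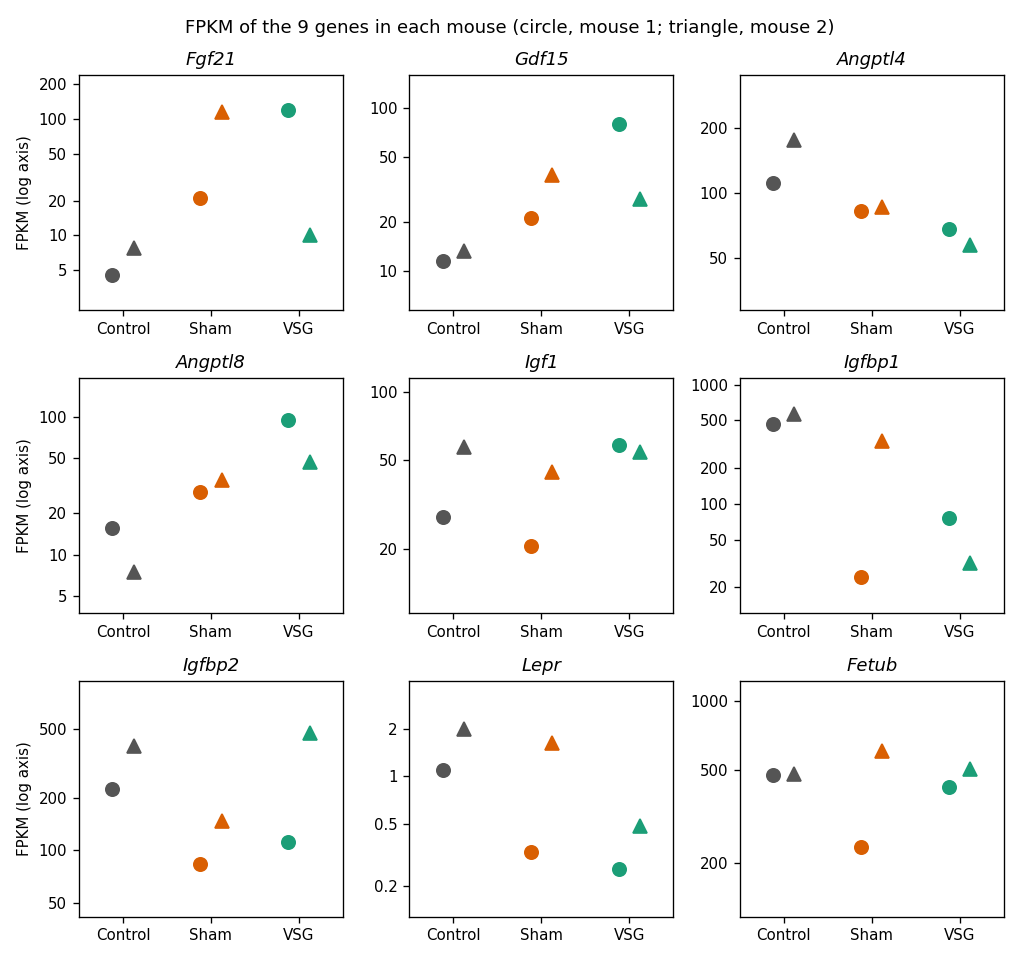
FPKM of each of the 9 genes (log axis) in the 2 mice of the Control, Sham and VSG groups, 1 point a mouse. Angptl8 was ordered Control, Sham, VSG from low to high and Angptl4 from high to low, without overlap, whereas Fgf21 ran from 21.1 to 116 FPKM in Sham mice and from 10.1 to 121 in VSG mice.

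Among the stress hormones, Fgf21 (chr7:52869277-52870860, minus strand) stood at 4.54 and 7.75 FPKM in Control mice, 21.1 and 116 in Sham mice, and 121 and 10.1 in VSG mice. Every high-fat mouse was above both Control mice, while Sham and VSG mice overlapped. The mean was 11.2 times the Control mean in Sham and 10.7 times in VSG mice. On the log2 scale of FPKM + 1, on which all fold changes here are given and which understates changes of low genes, Fgf21 differed by 2.87 (SE 1.36, limma adjusted p = 0.516) for Sham vs Control and 2.40 (SE 1.36, adjusted p = 0.655) for VSG vs Control. The 2 mice differed 5.51-fold in Sham and 12.1-fold in VSG, and the residual SD of Fgf21 was at the 97.4th percentile of all genes. For VSG vs Sham the difference was −0.47 (SE 1.36, adjusted p = 0.996), and it became 0.74 without Sham mouse 2 and 1.27 without VSG mouse 2.

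Gdf15 (chr8:73153292-73156355, minus strand) was at 11.4 and 13.2 FPKM in Control mice, 20.9 and 38.7 in Sham mice, and 79.7 and 27.6 in VSG mice. All 4 high-fat mice were above both Control mice, and VSG mice spanned a range that included the higher Sham mouse. The log2 difference was 1.15 (SE 0.58, limma adjusted p = 0.530) for Sham vs Control and 1.86 (SE 0.58, adjusted p = 0.457) for VSG vs Control. VSG exceeded Sham by 0.71 (SE 0.58, adjusted p = 0.941), and without VSG mouse 1 the difference was −0.042. In Fgf21 and Gdf15 alike, VSG mouse 1 was the highest of the 6 mice.

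Angptl8 (chr9:21639954-21641790, plus strand; named Gm6484 in the annotation) was at 15.5 and 7.56 FPKM in Control mice, 28.5 and 34.5 in Sham mice, and 94.9 and 46.7 in VSG mice. The 3 groups did not overlap and stood in the order Control, Sham, VSG, an order, rising or falling, that 3.32% of all genes kept without overlap. The log2 difference was 1.44 (SE 0.48, limma adjusted p = 0.406) for Sham vs Control, 1.06 (SE 0.48, adjusted p = 0.941) for VSG vs Sham and 2.51 (SE 0.48, adjusted p = 0.299) for VSG vs Control. The last had an unadjusted p of 0.00344 in that fit and was the 111th smallest of all genes. The gene overlaps Dock6, which is on the opposite strand, and with no strand setting given for the FPKM estimates, reads of the 2 genes cannot be told apart.

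Angptl4 (chr17:33910695-33918520, minus strand) took the reverse order, with 111 and 175 FPKM in Control mice, 82.3 and 86.1 in Sham mice, and 68.4 and 57.5 in VSG mice. Again no groups overlapped. The log2 difference was −0.72 (SE 0.29, limma adjusted p = 0.465) for Sham vs Control, −0.42 (SE 0.29, adjusted p = 0.941) for VSG vs Sham and −1.14 (SE 0.29, adjusted p = 0.382) for VSG vs Control. Angptl4 varied least of the 9 genes between mice of a group, with a residual SD of 0.29, at the 39.4th percentile of all genes.

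**Figure D2:**
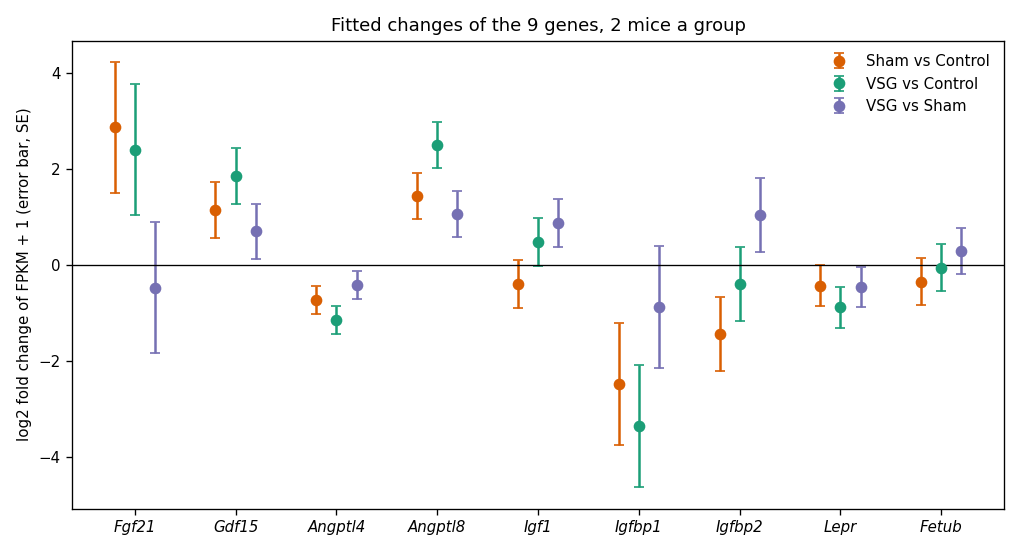
Fitted log2 fold change of FPKM + 1 for the 9 genes (points) with its SE (bars), for Sham vs Control, VSG vs Control and VSG vs Sham, 2 mice a group. The values ran from −3.35 for Igfbp1 to 2.87 for Fgf21, and these 2 genes had the widest bars, with SEs of 1.27 and 1.36.

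Of the IGF axis, Igf1 (chr10:87321010-87399792, plus strand) summed to 27.8 and 57.0 FPKM in Control mice, 20.7 and 43.9 in Sham mice, and 58.0 and 54.5 in VSG mice. Both VSG mice were above both Sham mice, and Control mice overlapped both groups. The log2 difference for VSG vs Sham was 0.88 (SE 0.50, limma adjusted p = 0.941). Much of the spread came from 1 transcript: NM_010512 was listed at 0 in Control mouse 1 and Sham mouse 1 and between 22.02 and 25.4 FPKM in the other mice. The other detected transcript, NM_001111275, was at 27.8 and 32.6 FPKM in Control mice, 20.7 and 21.9 in Sham mice, and 32.6 and 31.8 in VSG mice. By that transcript alone Sham mice were below both other groups, with log2 differences of −0.48 for Sham vs Control (limma adjusted p = 0.513) and 0.58 for VSG vs Sham (adjusted p = 0.936). The remaining 3 Igf1 transcripts were listed at 0 in all 6 mice.

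Igfbp1 (chr11:7097785-7102549, plus strand) was at 466 and 567 FPKM in Control mice, 24.2 and 339 in Sham mice, and 76.5 and 31.9 in VSG mice. Both Control mice were above every high-fat mouse, and the Sham mice, 14.1-fold apart, lay on either side of the VSG mice. The log2 difference was −2.48 (SE 1.27, limma adjusted p = 0.541) for Sham vs Control and −3.35 (SE 1.27, adjusted p = 0.509) for VSG vs Control, with a residual SD at the 97.0th percentile of all genes. For VSG vs Sham it was −0.87 (SE 1.27, adjusted p = 0.979), and 1.01 without Sham mouse 2.

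Igfbp2 (chr1:72871077-72899048, plus strand) was at 226 and 402 FPKM in Control mice, 83.3 and 147 in Sham mice, and 112 and 472 in VSG mice. Sham mice were below both Control mice, while VSG mice spanned both groups. The log2 difference was −1.43 (SE 0.77, limma adjusted p = 0.560) for Sham vs Control and 1.05 (SE 0.77, adjusted p = 0.941) for VSG vs Sham. The difference of VSG from Control was −0.39 (SE 0.77, adjusted p = 0.907), and 0.64 without VSG mouse 1. As in Igf1, a second transcript came and went: NM_001310659 was listed at 0 in mouse 1 of each group and at 110, 41.9 and 112 FPKM in mouse 2 of Control, Sham and VSG.

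Fetub (chr16:22918455-22939839, plus strand), the most abundant of the 9 genes with a mean of 455 FPKM, was at 478 and 482 FPKM in Control mice, 235 and 606 in Sham mice, and 424 and 507 in VSG mice. The Sham mice lay below and above all others. Log2 differences were −0.35 (SE 0.49, limma adjusted p = 0.811) for Sham vs Control and −0.051 (SE 0.49, adjusted p = 0.986) for VSG vs Control. The value for Sham vs Control became 0.33 without Sham mouse 1. In that mouse transcript NM_001083904 made up 58.5% of Fetub FPKM, against 16.5% to 28.4% in the other 5 mice.

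Lepr (chr4:101390009-101487957, plus strand) was the lowest of the 9, at 1.09 and 2.003 FPKM in Control mice, 0.329 and 1.63 in Sham mice, and 0.257 and 0.481 in VSG mice. VSG mice were below both Control mice, and Sham mice overlapped both groups. The log2 difference for VSG vs Control was −0.88 (SE 0.42, limma adjusted p = 0.604). All of this signal was assigned to NM_001122899, and the other 2 transcripts, NM_146146 and NM_010704, were listed at 0 in every mouse. Lep itself, which encodes leptin, was listed at 0 in all 6 livers.

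**Figure D3:**
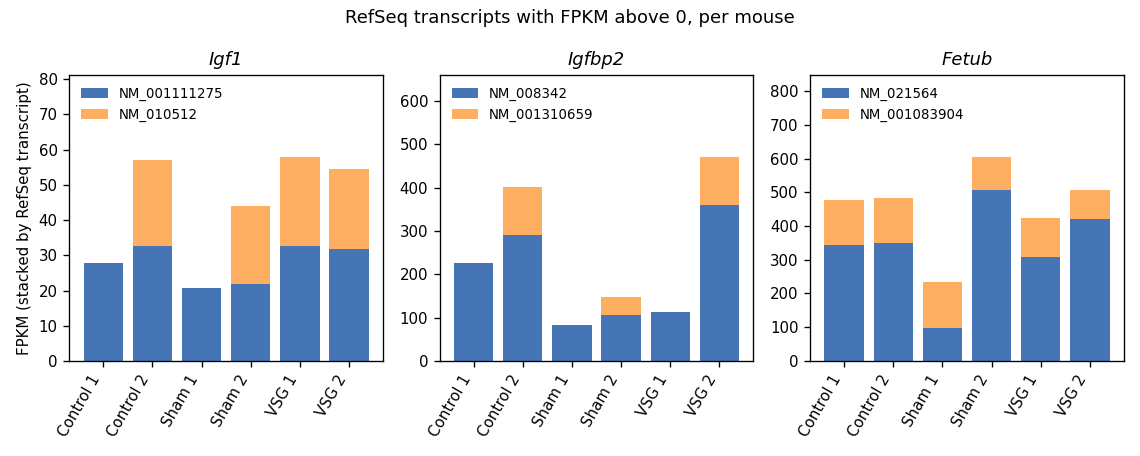
FPKM of the 2 detected RefSeq transcripts of Igf1, Igfbp2 and Fetub, stacked for each mouse. NM_010512 of Igf1 was listed at 0 in 2 mice and NM_001310659 of Igfbp2 in 3 mice, whereas NM_021564 of Fetub ran from 97.7 to 506 FPKM.

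The receptors and regulators of the axis were read from 8 related gene lists, of which 1 gene each of the insulin and PPAR lists passed the FDR of 10% in some comparison and no gene of the other 6 did in any. Among targets of insulin, SREBP1 and ChREBP, 12 of 15 genes tested were lower in Sham than in Control mice without overlap and 1 was higher; 9 were lower and 1 higher in VSG mice. Over all genes the groups did not overlap for 46.0% and 48.7%. The list's median log2 fold change was −1.41 for Sham vs Control and −0.67 for VSG vs Control, and 0.51 for VSG vs Sham, beside 0.034, 0.12 and 0.082 over all genes. VSG was above Sham without overlap for 7 of its genes and below for 0, where 28.4% of all genes did not overlap. The same all-gene medians and shares stand beside each of the other lists. Tat, the tyrosine aminotransferase of hepatocytes, was the gene called. It fell from 1376 and 1477 FPKM in Control to 210 and 188 in Sham and 233 and 283 in VSG mice, by 2.84 (SE 0.24, limma adjusted p = 0.0435) and 2.47 (SE 0.24, adjusted p = 0.0662).

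The other genes of that list did not pass the test. Scd1, the stearoyl-CoA desaturase, was at 1123 and 308 FPKM in Control, 27.7 and 4.32 in Sham, and 74.1 and 5.12 in VSG mice (Sham vs Control −5.58, SE 1.51, limma adjusted p = 0.352). G6pc, the glucose-6-phosphatase subunit, was at 144 and 272 FPKM in Control, 24.3 and 27.0 in Sham, and 87.8 and 149.8 in VSG mice (Sham vs Control −2.90, SE 0.42, adjusted p = 0.156). In G6pc both Sham mice were below all other mice, which is not the order of Igfbp1. Thrsp, which promotes lipogenesis, was at 216 and 115 FPKM in Control, 85.9 and 5.56 in Sham, and 99.9 and 120 in VSG mice (Sham vs Control −2.73, SE 1.23, adjusted p = 0.501).

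**Figure D4:**
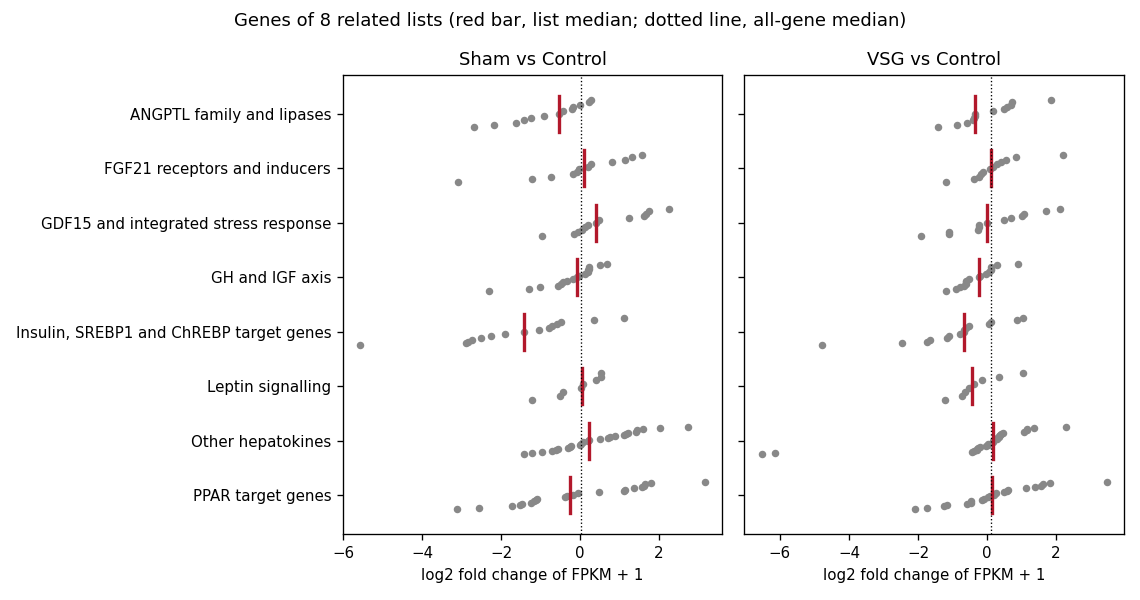
Log2 fold change of FPKM + 1 for each tested gene of the 8 lists (grey points), with the list median (red bars) and the all-gene median (dotted line), for Sham vs Control and VSG vs Control. The insulin, SREBP1 and ChREBP targets had medians of −1.41 and −0.67, and Scd1 had a value of −5.58 for Sham vs Control.

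Of the 22 PPAR targets, all tested, Cd36, a fatty acid transporter, rose in both high-fat groups vs Control by 1.64 (SE 0.18, limma adjusted p = 0.0722), from 6.73 and 6.48 FPKM to between 20.3 and 25.2 in the 4 high-fat mice. The list as a whole had a median of −0.26 for Sham vs Control and 0.15 for VSG vs Control, with 6 genes higher and 8 lower without overlap in Sham (46.0% of all genes without overlap) and 7 higher and 5 lower in VSG (48.7%). Acot1, an acyl-CoA thioesterase, was at 70.4 and 157 FPKM in Control, 17.1 and 17.2 in Sham, and 34.0 and 56.3 in VSG mice. Cidea, a lipid droplet protein, was at 0.0367 and 0.0441 FPKM in Control, 12.9 and 5.30 in Sham, and 24.7 and 4.11 in VSG mice. Acot3 was at 9.07 and 25.2 FPKM in Control, listed 0 and 2.49 in Sham, and 11.1 and 47.0 in VSG mice, and Acot4 was listed at 0 in Control mouse 2 and both VSG mice. Angptl4, itself a PPAR target, was lower in all 4 high-fat mice, unlike Cd36 and Cidea.

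For FGF21, 12 of 13 receptor and inducer genes were tested, with medians of 0.087 for Sham vs Control and 0.12 for VSG vs Control. Klb, the co-receptor, was between 1.16 and 5.34 FPKM over the 6 mice. The receptor Fgfr4 was at 5.73 and 7.97 FPKM in Control, 11.1 and 14.6 in Sham, and 14.3 and 11.7 in VSG mice, above Control in every high-fat mouse. Nr1d1, the clock repressor REV-ERB alpha, was at 7.88 and 6.84 FPKM in Control, 19.0 and 15.6 in Sham, and 63.3 and 22.1 in VSG mice (VSG vs Control 2.21, SE 0.51, limma adjusted p = 0.345). Rxra, which pairs with PPARs, was listed at 0 in Sham mouse 1 and between 65.0 and 86.7 FPKM in the others. Fgfr3 was likewise listed at 0 in that mouse alone, and Fgf1 was listed at 0 in Control mouse 2 and both VSG mice.

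For GDF15 and the integrated stress response, 13 of 18 genes were tested, with a median of 0.41 for Sham vs Control, −0.60 for VSG vs Sham and 0.012 for VSG vs Control. Trib3, a pseudokinase target of ATF4, was at 1.34 and 0.733 FPKM in Control, 3.13 and 10.1 in Sham, and 8.28 and 3.63 in VSG mice (Sham vs Control 1.75, SE 0.60, limma adjusted p = 0.417). Atf5 was at 107 and 108 FPKM in Control, 266 and 440 in Sham, and 409 and 124 in VSG mice (Sham vs Control 1.66, SE 0.62, adjusted p = 0.437). Trib3 and Atf5, like Fgf21, had Sham mouse 2 and VSG mouse 1 as their highest mice. Atf4 itself was between 42.3 and 73.4 FPKM over all 6 mice. Psat1, of serine synthesis, was at 0.269 and 0.172 FPKM in Control, 1.01 and 6.03 in Sham, and 1.41 and 0.642 in VSG mice. Ppp1r15a, a phosphatase subunit of the pathway, was at 9.84 and 10.6 FPKM in Control, 4.73 and 4.73 in Sham, and 7.81 and listed 0 in VSG mice. Gfral was listed at 0 in all 6 mice.

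In the growth hormone and IGF list, 17 of 24 genes with a value were tested, with medians of −0.078 for Sham vs Control and −0.23 for VSG vs Control. Igfals, the acid-labile subunit that holds IGF-1 in its ternary plasma complex, was at 35.3 and 40.0 FPKM in Control, 47.1 and 41.6 in Sham, and 76.1 and 65.2 in VSG mice (VSG vs Control 0.89, SE 0.21, limma adjusted p = 0.350). Igfbp3, made largely by cells other than hepatocytes, was at 5.45 and 3.84 FPKM in Control, 1.54 and 1.01 in Sham, and 2.34 and 2.98 in VSG mice (Sham vs Control −1.31, SE 0.28, adjusted p = 0.275). Igfbp7, an endothelial and stellate product, was at 35.9 and 28.8 FPKM in Control, 13.9 and 16.8 in Sham, and 32.3 and 37.2 in VSG mice (VSG vs Sham 1.13, SE 0.23, adjusted p = 0.650). In Igfbp3 and Igfbp7 both Sham mice were the lowest. Cish, a target of growth hormone, was at 4.34 and 10.96 FPKM in Control, 1.65 and 10.04 in Sham, and 2.73 and 2.35 in VSG mice.

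Summed markers of other liver cell types differed between these groups. The 14 sinusoidal endothelial markers summed to 82.3 and 46.8 FPKM in Control, 21.8 and 13.5 in Sham, and 59.1 and 54.1 in VSG mice, and the 14 stellate markers to 106 and 92.0, 28.2 and 42.3, and 90.3 and 133. The 14 Kupffer cell and macrophage markers summed to 53.2 and 36.6 FPKM in Control, 138 and 131 in Sham, and 106 and 344 in VSG mice. By these sums Sham mice were lowest for both of the former, as for Igfbp3 and Igfbp7. All high-fat mice were above Control for the sum of the latter, as for Fgf21, Gdf15 and Angptl8. Abundant markers weigh most in a sum, and single markers did not all follow it. The macrophage markers Csf1r and Adgre1 were lower in VSG mouse 1 than in both Control mice. Csf1r and Clec4f were lower in Sham mouse 1 than in both Control mice. The stellate marker Col1a1 was higher in both Sham mice than in Control mice, and the endothelial marker Lyve1 was not lowest in both Sham mice. The 10 neutrophil markers ran from 5.74 to 14.8 FPKM in Control, 44.1 to 47.5 in Sham and 17.0 to 23.8 in VSG mice, with Ly6g at 0 in all. The 8 cholangiocyte markers ran from 40.1 to 47.9, 82.3 to 204 and 63.0 to 169 FPKM, of which Spp1 gave the largest part in each mouse, while Krt19 stayed between 0.0731 and 1.01. The 7 adipocyte markers ran from 21.1 to 22.1, 47.6 to 76.2 and 28.5 to 81.8 FPKM, with Lep at 0 and Adipoq at most 0.0220. The 8 pancreas and gut markers ran from 40.1 to 56.7, 67.8 to 68.1 and 90.8 to 149 FPKM, almost all from Fabp2, with Ins2, Cela2a and Vil1 at 0. The part of these cell types in the results was not tested.

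In the ANGPTL and lipase list, 13 of 16 genes were tested, with medians of −0.54 for Sham vs Control and −0.34 for VSG vs Control. Gpihbp1, which anchors lipoprotein lipase on capillary endothelium, was at 13.0 and 9.498 FPKM in Control, 4.22 and 1.93 in Sham, and 4.95 and 10.1 in VSG mice (Sham vs Control −1.63, SE 0.45, limma adjusted p = 0.357). Lipc, the hepatic lipase, was at 59.0 and 48.3 FPKM in Control, 35.7 and 2.92 in Sham, and 38.8 and 45.3 in VSG mice. Apoc2, the lipase cofactor, and Angptl6 were listed at 0 in Sham mouse 1 alone. In the remaining mice Apoc2 was at 204 and 153 FPKM in Control, 747 in Sham mouse 2, and 847 and 476 in VSG mice.

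Of the other hepatokines, 26 of 34 genes with a value were tested, and 12 were higher and 5 lower in Sham than Control mice without overlap, against 46.0% of all genes in either direction (median 0.21, all genes 0.034). For VSG vs Sham the counts were 3 and 10, against 28.4% of all genes (median −0.24, all genes 0.082). Hamp, the iron hormone hepcidin, was at 2052 and 2407 FPKM in Control, 1253 and 718 in Sham, and 99.7 and 4.74 in VSG mice (VSG vs Control −6.53, SE 1.35, limma adjusted p = 0.329). Its near copy Hamp2 was at 575 and 542, 272 and 160, and 23.1 and 1.56 FPKM, and reads of these similar genes may be divided with error. Hamp, Hamp2 and Angptl4 shared the falling order of the groups. Lect2 was at 47.6 and 41.9 FPKM in Control, 218 and 66.2 in Sham, and 272 and 181 in VSG mice (VSG vs Control 2.29, SE 0.60, adjusted p = 0.395). Orm1, an acute phase protein, was at 1351 and 1318 FPKM in Control, 6956 and 11190 in Sham, and 5117 and 1720 in VSG mice (Sham vs Control 2.72, SE 0.62, adjusted p = 0.283).

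Downstream of leptin, 8 of 10 genes were tested, with medians of 0.050 for Sham vs Control and −0.45 for VSG vs Control. Socs3, the feedback inhibitor of the receptor, was at 20.6 and 13.4 FPKM in Control, 18.6 and 31.8 in Sham, and 10.8 and 3.79 in VSG mice (VSG vs Sham −1.76, SE 0.54, limma adjusted p = 0.941). Both VSG mice were the lowest of the 6. Stat3 was at 39.3 and 46.4 FPKM in Control, 6.26 and 48.2 in Sham, and 25.8 and 25.5 in VSG mice. Sh2b1, an adaptor, was at 5.30 and 5.70 FPKM in Control, 9.82 and 5.76 in Sham, and 9.99 and 15.1 in VSG mice. Ptpn1, a phosphatase that dampens the receptor, was at 8.04 and 5.47 FPKM in Control, 4.07 and 4.62 in Sham, and 3.08 and 4.94 in VSG mice, each VSG mouse below both Control mice.

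Chromatin near the genes was read from 1 FAIRE peak list per group, each pooled from 2 mice, so that no value per mouse and no test could be had. The number of peaks was 42204, 52881 and 44539 for Control, Sham and VSG mice, and the F-seq signal was used only as a percentile within its list. Within 50 kb of the 9 genes lay 130 Control, 155 Sham and 135 VSG peaks, which merged to 172 regions. Of these, 94 (54.7%) were in all 3 lists and 30 (17.4%) in the Sham list only, close to the 55.2% and 17.1% of the 59246 merged regions of the whole genome. The windows reach neighbouring genes, and the nearest protein-coding TSS was that of the member for 74 of the 172 regions.

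A peak lay within 1 kb of a TSS for 8 of the 9 genes in the Control list, 7 in the Sham list and 8 in the VSG list, against 89.7%, 89.4% and 90.5% of 8565 genes. Lepr had none in any list. Igfbp2 had none in the Sham list, and the weak ones in the Control and VSG lists were different regions that did not overlap. These were chr1:72871355-72871823, at percentile 9.74 of the Control list, and chr1:72871035-72871242, at percentile 5.82 of the VSG list. In all 3 lists Igfbp2 kept an intronic peak 5479 bp from a TSS, at percentiles 81.7, 82.3 and 76.2 for Control, Sham and VSG. The Igfbp1 TSS lay in a peak at percentiles 83.5, 91.0 and 77.2 in that order and the Angptl8 TSS in one at percentiles 77.6, 76.1 and 74.0. For Fgf21 the percentiles were 51.7, 61.5 and 46.8, and for the Gdf15 peak, which spans 2288 bp and both promoters, 91.1, 86.4 and 87.1.

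Of the peaks over the Angptl4 gene itself, the strongest was at an internal TSS, chr17:33915811-33916865, at percentiles 93.6, 98.0 and 92.0 of the Control, Sham and VSG lists. Over Igf1 the lists differed most in number, with 10 peaks in the gene in the Sham list against 5 in each of the others. Igf1 also overlaps the annotated gene Gm16176. A peak 261 bp before the annotated Igf1 start was in all 3 lists, at percentiles 22.6, 52.4 and 54.3 of Control, Sham and VSG. At a TSS within the gene, chr10:87323303-87323911, a weak peak was in the Control and Sham lists, at percentiles 30.8 and 11.9, and not in the VSG list. Lepr carried 2 peaks within the gene in the Sham list, at percentiles 12.5 and 11.8, and 0 in the others. The Sham list is the longest, and how deeply each was sequenced is not known.

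**Figure D5:**
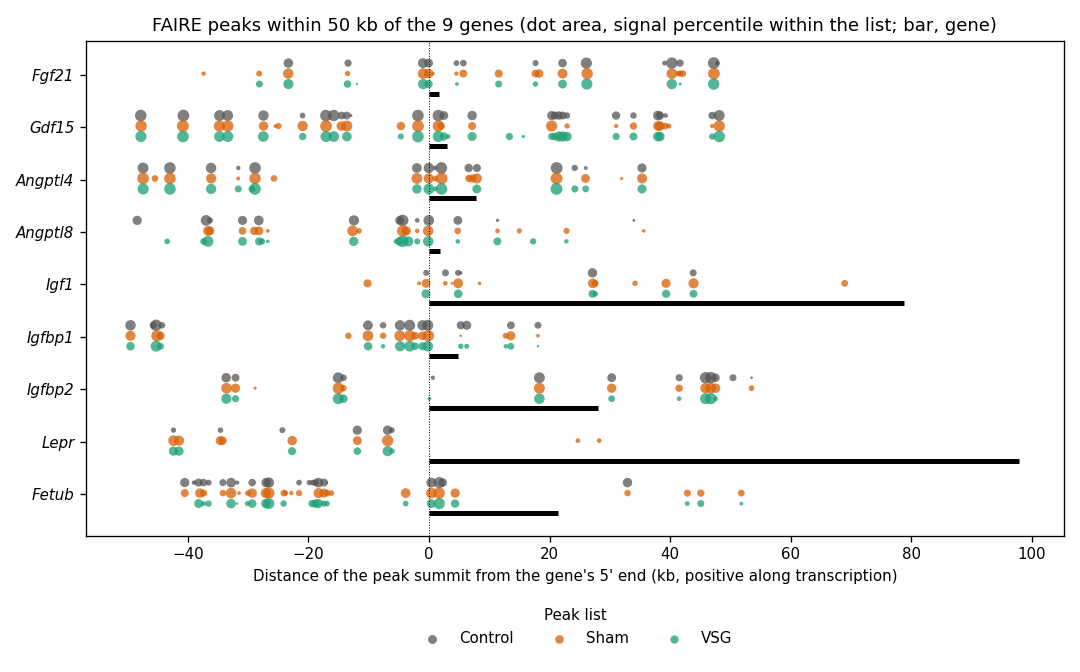
Summits of FAIRE peaks within 50 kb of each of the 9 genes, by distance from the 5' end of the gene in kb along transcription. Dots are coloured by peak list, their area grows with the signal percentile within the list, and black bars are the genes. A peak within 1 kb of a TSS was in all 3 lists for 7 of the genes and in no list for Lepr. For Igfbp2 the Control and VSG lists held different peaks there and the Sham list none.

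Likeness over the 6 mice was measured as the root mean square difference between log2(FPKM + 1) profiles after the mean of each gene was removed. Gdf15 was most like Pdzd11 (0.15 on the log2 scale), Extl1 (0.27) and Setd4 (0.33). Genes like Angptl8 included Nr1d1 (0.34) and Extl1 (0.43). Angptl4 was most like Usp6nl (0.13), Bud13 (0.14) and Fam222a (0.15), and Lepr most like Map3k6 (0.10), Marveld3 (0.13) and Srpk1 (0.15). The span of each member over the mice was 2.70 for Gdf15, 3.49 for Angptl8, 1.59 for Angptl4 and 1.26 for Lepr.

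Igf1 was most like Casd1 (0.14), 2610507B11Rik (0.15) and Cpne1 (0.16), and Fetub most like Fer (0.045), Rnf40 (0.052) and Ints7 (0.059). Igfbp2 was most like Zfp385a (0.27), Aspa (0.30) and Fbxo38 (0.30). Fgf21 and Igfbp1 differed most from their nearest genes, but they also had the widest spans, 4.46 and 4.50, and the difference can grow with the span. For Fgf21 the nearest were Serpina12 (0.60), Rnf214 (0.65) and Ddit3 (0.71), the last being CHOP of the stress response. Ddit3 was listed at 0 in 4 mice and at 21.7 and 17.4 FPKM in Sham mouse 2 and VSG mouse 1. Serpina12 was listed at 0 in the same mice as Ddit3, and Rnf214 in both Control mice and VSG mouse 2. For Igfbp1 the nearest were Snora69 (0.57), Stat2 (0.69) and Gadd45g (0.71). Snora69 and Stat2 were listed at 0 in Sham mouse 1 and both VSG mice, and Stat2 was highest in Sham mouse 2. Gadd45g was at 159 and 152 FPKM in Control, 15.4 and 42.5 in Sham, and 14.7 and 7.90 in VSG mice. Zfp385a, Setd4 and Fer also had listed zeros. All the genes named as alike were among the 3 nearest of the genes tested over 6 mice, and no p was computed.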

How the data were processed

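RNA-seq and FAIRE-seq were each measured in 2 mice per group. The deposited FPKM values are estimates that the authors made per RefSeq transcript and mouse with Cufflinks, from reads they aligned with TopHat2 to mm9. The F-seq signal of each peak comes from deposited lists for which the authors aligned reads with Bowtie and retained, by IDR, peaks found in both mice of a group. Versions are not given in the sources used here. Deposited DESeq2 tables hold the authors' fold changes and p-values, and deposited site lists hold positions of the sites they called; neither was used.

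Of 34933 transcripts, 34042 were matched to RefSeq symbols and summed by gene. Genes with at least 1 FPKM in at least 2 mice were fitted as log2(FPKM + 1) in limma 3.58.1 (R 4.3.3) with a variance trend, all 6 mice sharing one spread, and adjusted by Benjamini-Hochberg over 9748 genes at an FDR of 10%. The step was tested on simulated data. Alb, Serpina1a, Tf and Ghr were not analysed here. Peaks of the 3 lists that overlapped or touched were merged, and RefSeq promoters (GRCm38.p6) were searched for 5 motifs on both strands. Python 3.11.15 with numpy 2.4.6, pandas 2.3.3 and matplotlib 3.10.9 was used.

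The members and lists were chosen with earlier results of these data known. All 9 members are named, with the genes of each list past the FDR and up to 4 with the largest fold change among genes without overlap, of mean FPKM at least 1; Fgfr4, Klb, Atf4, Gfral and Lep were added after their values were seen. The 3 most alike genes of each member are named, except where an item is not reported here.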

Additional observations from a re-analysis of the deposited data

How the results depend on the processing

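None of the 9 genes passed the FDR of 10% in any of 15 alternatives, and the lowest adjusted p of any was 0.104, for Igfbp1 in Sham vs Control without Sham mouse 2. The direction held in all alternatives for 23 of 36 gene and comparison pairs and was reversed at least once for 13, with adjusted p-values of at least 0.545 there. Leaving out 1 mouse at a time, the log2 difference ran from −2.20 to 1.27 for Fgf21, −2.75 to 1.01 for Igfbp1, −0.042 to 1.45 for Gdf15, −0.94 to 0.037 for Lepr and −0.39 to 0.98 for Fetub in VSG vs Sham. In Sham vs Control it ran from −0.92 to 0.14 for Igf1, −0.91 to 0.068 for Lepr and −1.03 to 0.33 for Fetub, and in VSG vs Control from −0.018 to 0.99 for Igf1, −1.42 to 0.64 for Igfbp2 and −0.18 to 0.077 for Fetub. For both high-fat groups vs Control it ran from −0.46 to 0.55 for Igf1 and −0.54 to 0.14 for Fetub. With transcripts tested on their own, the main transcript gave 0.058 for Fetub in VSG vs Control and −0.19 for Igf1 in both high-fat groups vs Control, where quantile normalization gave −0.019 and upper quartile scaling −0.067. The all-gene median of VSG vs Control, 0.12 in the values as deposited, was 0.00176 after quantile normalization.

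The counts of all genes called moved more. Leaving out 1 mouse, they ran from 0 to 169 for Sham vs Control, 0 to 77 for VSG vs Sham, 0 to 39 for VSG vs Control and 0 to 75 for both high-fat groups vs Control, with a lone mouse assumed to vary like the other groups. The highest came without Sham mouse 2, or for VSG vs Control without Sham mouse 1, which gave 57 and 34 for Sham vs Control and VSG vs Sham. Without either Control mouse limma called 0 genes in all 3 comparisons with Control, where 459 to 586 genes had an unadjusted p below 0.05, and 9 for VSG vs Sham. Without VSG mouse 1 or 2 it called 0 for VSG vs Sham (654 and 515 below 0.05), 10 and 5 for VSG vs Control, and 19 and 22 for both groups vs Control. A mean FPKM of at least 5 left 9, 2, 6 and 22 genes in the order Sham vs Control, VSG vs Sham, VSG vs Control and both groups vs Control, among 5369 tested. No filter gave 62 for Sham vs Control. For VSG vs Sham, a pseudocount of 0.1 gave 8, transcripts 9, and fitting only the 2 groups compared 9, and the last gave 48 for VSG vs Control. The replicate block gave 9, 0, 10 and 9, and no member was called under it. Replicate numbers were not taken to pair the mice in the main fit. Deviations of same-numbered mice correlated at 0.11, 0.059 and 0.030, and with 2 mice a group these values cannot show whether the mice were paired. At 0 calls in VSG vs Sham under that block, limma gave 504 genes an unadjusted p below 0.05. The cause of these changes was not tested.

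Among peaks, the 50% with the highest signal left 63, 77 and 62 within 50 kb in Control, Sham and VSG mice and 9 within 1 kb of a TSS in VSG mice. Windows of 10 kb held 43, 55 and 49 peaks and windows of 100 kb 212, 248 and 211. The 94 regions in all 3 lists were 94 also when at least 50% of the shorter peak had to overlap. Lepr, with a mean of 0.964 FPKM, lay below 1 FPKM in 3 mice.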
